A study of Mus musculus with 39 samples.

Results

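The MEIS and PBX families were read as 6 genes, *Meis1*, *Meis2*, *Meis3*, *Pbx2*, *Pbx3* and *Pbx4*, of 47643 genes listed in each of the deposited count tables. The genes were found by symbol, and each symbol was listed once in both tables. The families were chosen by a rule that had measured expression values of these same libraries in view, and the contrast that entered the choice is not recorded. Their levels and differences are therefore given as a description, and an adjusted p-value is printed only as the value of a fit across all genes.

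MEIS and PBX proteins are homeodomain transcription factors of the TALE class, whose homeodomain holds a loop extension. MEIS proteins bind PBX proteins, and the pair binds DNA with HOX proteins, whose choice of target sites it sharpens. PBX proteins are found in many tissues, and retention of PBX in the nucleus depends on MEIS or the related PREP partners. In the embryo these factors are best known from the hindbrain, limb and blood lineages, and MEIS genes are known to respond to retinoic acid in several tissues.

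Single epiblasts, the pluripotent tissue that gives rise to the fetus, had been dissected free of extraembryonic ectoderm and visceral endoderm from a cross between *Stat3* heterozygous CD1 mice, and each embryo was genotyped from its extraembryonic tissue. *Stat3* null embryos lacked exons of the gene for STAT3, the transcription factor downstream of LIF and other cytokines, in all cells, and were compared with WT embryos of the same cross. Embryonic day (E) 5.5 had 4 null and 2 WT libraries, E6.5 had 8 null and 9 WT libraries, and E7.5 had 3 null and 9 WT libraries, with 1 epiblast in each. The remaining 4 libraries came from epiblast stem cells (EpiSCs), 2 null and 2 WT lines, each grown from 1 epiblast in medium with FGF2, Activin A and the Wnt inhibitor XAV-939. The comparison of genotypes asks whether loss of STAT3 alters the course of the epiblast towards gastrulation, and the comparison of stages within a genotype gives that course.

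*Meis1* (ENSMUSG00000020160.18) lies on the minus strand at chr11:18879817-19018985, *Meis2* (ENSMUSG00000027210.20) on the minus strand at chr2:115863064-116065839 and *Meis3* (ENSMUSG00000041420.18) on the plus strand at chr7:16175090-16186504, in build GRCm38. *Pbx2* (ENSMUSG00000034673.14) lies on the plus strand at chr17:34591266-34597400, *Pbx3* (ENSMUSG00000038718.15) on the minus strand at chr2:34171457-34373142 and *Pbx4* (ENSMUSG00000031860.17) on the plus strand at chr8:69832491-69872292. All are protein coding. Counts were given per gene, so the parts of a gene, such as single exons and UTRs, were not separated. An exon of *Gm37818*, a transcript of unknown coding status, overlaps *Meis1* on the same strand and had at most 2.64 CPM (counts per 1000000 counts of the library) in any epiblast library, and an exon of *Gpsm3* overlaps *Pbx2* on the same strand with at most 11.4 CPM. An exon of *Gm16140*, annotated as antisense, overlaps *Meis1* on the other strand and had at most 1.04 CPM in any epiblast library; the counting is not stated to use strand, so reads of such a pair cannot be told apart. No other transcript matched a member at 95% identity over 200 bases or more, with *Gm37818* the exception for *Meis1*.

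The sequences before the start sites of the MEIS genes are shown because these are the members that rose together in WT epiblasts between E6.5 and E7.5. They are RefSeq promoters of GRCm38.p6, written 5′ to 3′ on the strand of the gene, with 250 bases before the start and the first transcribed base in capitals. They lie at chr11:19018969-19019219 for *Meis1*, chr2:116064619-116064869 for *Meis2* and chr7:16175145-16175395 for *Meis3*, and the GENCODE models of *Meis2* and *Meis3* place some transcript starts further upstream.
Meis1: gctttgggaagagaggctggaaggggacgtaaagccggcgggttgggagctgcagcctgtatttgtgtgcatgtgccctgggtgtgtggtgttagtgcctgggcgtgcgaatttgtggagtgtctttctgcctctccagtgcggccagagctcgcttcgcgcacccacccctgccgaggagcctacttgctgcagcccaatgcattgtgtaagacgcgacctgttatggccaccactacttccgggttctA
Meis2: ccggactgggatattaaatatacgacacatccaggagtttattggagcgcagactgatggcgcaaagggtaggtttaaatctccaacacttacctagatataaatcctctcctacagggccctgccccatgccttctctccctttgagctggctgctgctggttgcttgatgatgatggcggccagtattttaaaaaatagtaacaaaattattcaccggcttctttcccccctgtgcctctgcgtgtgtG
Meis3: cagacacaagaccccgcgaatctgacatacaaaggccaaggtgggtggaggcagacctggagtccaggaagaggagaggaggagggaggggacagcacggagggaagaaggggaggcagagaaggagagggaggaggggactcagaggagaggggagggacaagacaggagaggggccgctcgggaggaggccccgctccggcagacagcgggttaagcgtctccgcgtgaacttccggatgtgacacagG
Windows of 300 bases, with 50 bases after the start, were found for 5 of the 6 genes, all but *Pbx3*. They were searched on both strands for TTCNNNGAA, the palindrome that STAT dimers bind, TGACAG, the core that MEIS proteins bind, AGGTCA, a half-site of retinoic acid receptors, and TGATTNAT, a site of PBX with HOX. None of the 5 windows held any of these letters. Of 32851 windows of the same length in the table, 8.30% held TTCNNNGAA, 19.2% TGACAG, 16.3% AGGTCA and 3.22% TGATTNAT. The window of *Meis1* had a GC content of 58.3%, that of *Meis2* 51.0%, that of *Meis3* 66.7%, that of *Pbx2* 76.0% and that of *Pbx4* 59.3%, beside a median of 52.7% over all windows.

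Total counts ran from 22941210 to 38635127 for E5.5, from 27913392 to 79013960 for E6.5, from 25793920 to 41655234 for E7.5 and from 63445877 to 127583699 for EpiSCs. At E7.5 the 3 null libraries (37143484 to 41655234) and E7.5 WT 3 (39477197) were deeper than the other 8 WT libraries (25793920 to 36002498). The part of depth in the differences at E7.5 was not tested. *Stat3*, with its exons not separated, was at 1.22 to 1.48 CPM in the null libraries and at 4.803 to 25.3 CPM in the WT libraries of E7.5, while the ranges met at E6.5 (1.41 to 7.59 and 5.84 to 27.2 CPM). *Pou5f1*, which marks epiblast, was at 0.654 CPM in E5.5 null 1 and at 100.6 CPM or more in every other library, so the label of that library was not borne out by this marker. Of 5 epiblast genes read as a list, 3 were at 0 there. *Utf1* of that list went the other way, at 151 CPM beside 179 to 239 CPM in the other E5.5 libraries. E5.5 null 1 and E6.5 null 1 had the most *Elf5*, a marker of extraembryonic ectoderm, of their stages, at 273 and 171 CPM. E7.5 WT 3 had 0.177 CPM summed over 12 anterior *Hox* genes, against 71.8 to 218 CPM in the other 8 WT libraries of its stage. Where leaving out 1 of these libraries changed a call or moved a value by more than 1.5 times, the value without it is given too. In bulk libraries, fewer cells of a type and less RNA per cell cannot be told apart.

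Between genes, levels were compared per length, as CPM per kilobase of merged exons. PBX transcripts outweighed MEIS transcripts in every group on this scale. The summed level of *Pbx2*, *Pbx3* and *Pbx4* was 12.7 ± 0.414 (SD, n = 2) in WT at E5.5, 23.4 ± 2.85 (SD, n = 9) at E6.5 and 32.6 ± 6.10 (SD, n = 9) at E7.5. The summed level of the 3 MEIS genes was 4.60 ± 0.867 (SD, n = 2), 1.69 ± 0.560 (SD, n = 9) and 14.6 ± 6.03 (SD, n = 9) at the same stages. In null epiblasts the MEIS sum was 5.01 ± 3.02 (SD, n = 4), 1.92 ± 0.783 (SD, n = 8) and 4.45 ± 0.775 (SD, n = 3), and the PBX sum was 17.2 ± 3.30 (SD, n = 4), 24.4 ± 2.82 (SD, n = 8) and 26.6 ± 2.13 (SD, n = 3).

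*Pbx2*, a widely expressed PBX gene, had the highest level per length of the 6 in each of the 8 groups. In WT at E7.5 its level per length of 20.1 ± 4.56 (SD, n = 9) stood above that of *Pbx3*, 10.97 ± 2.71 (SD, n = 9), in all 9 libraries. *Pbx3* in turn stood above *Meis2* in 7 of those 9 libraries, *Meis2* above *Meis3* in 8, *Meis3* above *Meis1* in 6 and *Meis1* above *Pbx4* in 6, so the order of *Pbx3*, *Meis2*, *Meis3*, *Meis1* and *Pbx4* was not the same in each library. At E6.5 the order began with *Pbx2* and *Pbx3* in both genotypes, and *Meis3*, *Pbx4*, *Meis2* and *Meis1* were all at 1.48 per length or below on average. *Meis3* and *Pbx4* were not separated there, with *Meis3* above *Pbx4* in 5 of 9 WT and 5 of 8 null libraries. In WT EpiSCs *Meis1* held the third place, at 3.66 ± 0.328 (SD, n = 2), after *Pbx2* and *Pbx3*, and in null EpiSCs it held the fifth, at 0.291 ± 0.0749 (SD, n = 2).

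**Figure D1:**
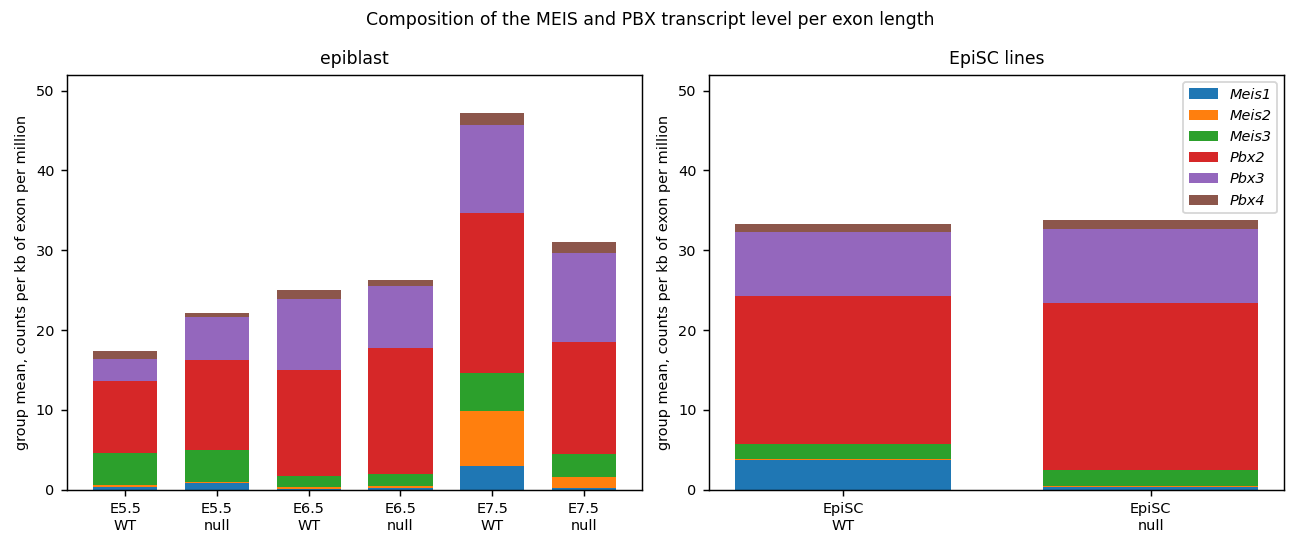
Group means of the level of each gene per exon length (vertical axis, CPM per kilobase of merged exons) stacked by gene for the 6 epiblast groups (left) and the EpiSC groups (right); SDs are in the text. *Pbx2* is the tallest block of each bar, the MEIS blocks are largest in WT at E7.5, and epiblast and EpiSC bars come from different library kits.

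Between E6.5 and E7.5 in WT epiblasts the 3 MEIS genes rose and the 3 PBX genes did not pass the call. A gene was called when its adjusted p by edgeR's quasi-likelihood test, taken over all genes tested, was under 0.05 and its log2 fold change was beyond 1 in either direction. Of 17191 genes tested 8.83% were called in either direction and 5.74% were called higher. Since the 6 genes were not chosen blind to these values, nothing is read from the count of 3 against that background.

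*Meis1*, a partner of HOX proteins known from blood stem cells and leukaemia, had 0 to 3.36 CPM in the 9 WT libraries of E6.5, with a median of 0.629 CPM, and 0.532 to 63.9 CPM in the 9 of E7.5, with a median of 27.6 CPM. The 8 WT libraries of E7.5 other than E7.5 WT 3 lay at 21.1 CPM or more, all above E6.5, and E7.5 WT 3 lay within the E6.5 range. The log2 fold change was 4.75 (SE 0.83, adjusted p = 4.7e-04 by edgeR) and it was 4.91 (adjusted p = 4.6e-05 by edgeR) without E7.5 WT 3. The 0 at E6.5 was in E6.5 WT 7, where a count of 0 allows up to 0.0904 CPM, counting error only.

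*Meis2*, known from the palate, limb and neural crest, went from 0 to 6.81 CPM at E6.5 (median 3.99) to 3.83 to 114 CPM at E7.5 (median 90.2) in WT. Again the groups met only through E7.5 WT 3, at 3.83 CPM, and the other 8 libraries of E7.5 lay at 64.4 CPM or more. The log2 fold change was 4.52 (SE 0.81, adjusted p = 6.3e-04 by edgeR), and 4.68 without E7.5 WT 3. *Meis3*, the third MEIS gene, went from 0.985 to 7.25 CPM to 7.47 to 29.5 CPM. Every E7.5 library had more *Meis3* than every E6.5 library, with E7.5 WT 3 the lowest of the later stage, and the log2 fold change of 1.79 (SE 0.34, adjusted p = 6.0e-04 by edgeR) was smaller than those of *Meis1* and *Meis2*.

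*Pbx2* went from 48.2 ± 7.17 (SD, n = 9) to 73.3 ± 16.6 CPM (SD, n = 9), a log2 fold change of 0.51 (SE 0.12, adjusted p = 0.0037 by edgeR) that was under the fold of the call. *Pbx3*, which the mouse needs for breathing at birth, had 54.7 ± 16.6 CPM (SD, n = 9) and 67.0 ± 16.6 CPM (SD, n = 9), with a log2 fold change of 0.21 and a 95% interval from -0.16 to 0.59. *Pbx4*, whose transcript is best known from the testis, stayed near the low end at 2.55 ± 1.19 (SD, n = 9) and 3.24 ± 2.65 CPM (SD, n = 9), with a log2 fold change of 0.25 and a 95% interval from -0.70 to 1.19.

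**Figure D2:**
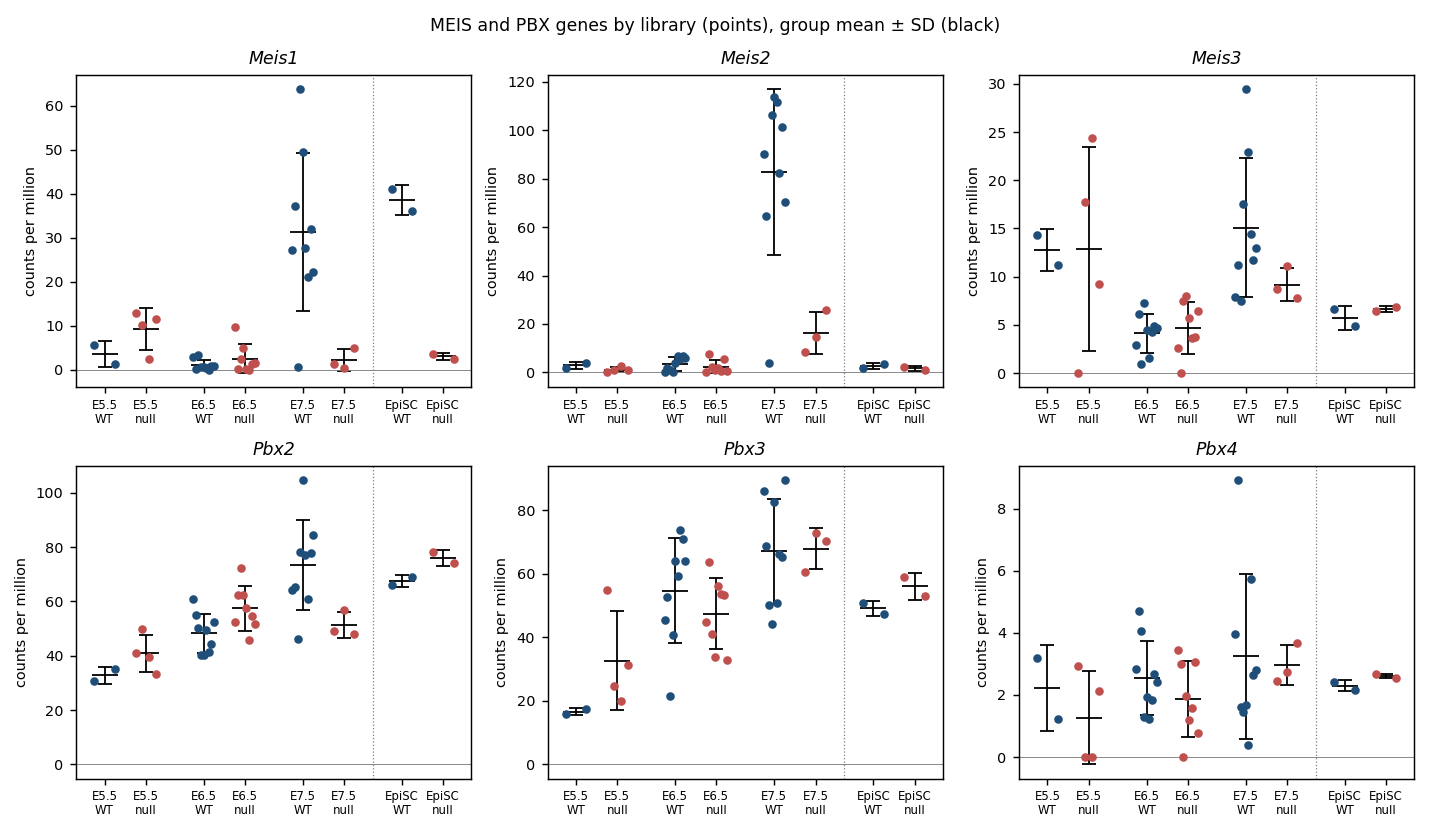
CPM (vertical axis, linear) of each gene in every library (points; WT blue, null red) with the group mean ± SD in black, for the epiblast stages and, right of the dotted line, the EpiSC lines. *Meis1* and *Meis2* are high in 8 of 9 WT libraries at E7.5 and low in E7.5 WT 3 and in the 3 null libraries, and in EpiSCs only *Meis1* of the MEIS genes stands apart between genotypes.

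The step from E5.5 to E6.5 in WT moved *Pbx3* up, and it rested on 2 libraries at E5.5. *Pbx3* was at 15.9 and 17.3 CPM at E5.5 and at 21.5 to 73.8 CPM at E6.5 (median 59.4). The ranges did not meet, and the log2 fold change was 1.75 (SE 0.36, adjusted p = 0.0098 by edgeR), with 5.15% of 20763 genes called. The call was lost when either E5.5 library was left out (adjusted p = 0.19 without E5.5 WT 1 and 0.063 without E5.5 WT 2 by edgeR), while the log2 fold change was 1.67 and 1.74. Without 1 of the 2, the spread comes from the E6.5 libraries alone, and the remaining E5.5 library is assumed to vary as they do. Markers of visceral endoderm moved with this step, since 9 genes summed to 5097 and 6710 CPM in the E5.5 libraries and to 47.0 to 5239 CPM at E6.5 (median 163). The E6.5 library with the least *Pbx3*, WT 3, was the one with 5239 CPM, and the part of these markers in the *Pbx3* step was not tested.

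*Meis3* was at 14.3 and 11.2 CPM in the E5.5 WT libraries, above each E6.5 WT library, with a log2 fold change of -1.60 (SE 0.53, adjusted p = 0.074 by edgeR). *Pbx2* was at 30.5 and 35.1 CPM at E5.5, below each of the 9 WT libraries of E6.5 (40.2 to 60.8 CPM), with a log2 fold change of 0.60 (SE 0.18, adjusted p = 0.054 by edgeR). *Meis1* had 5.68 and 1.37 CPM at E5.5 and a log2 fold change of -1.73 (SE 1.26, adjusted p = 0.45 by edgeR), which was -0.36 without E5.5 WT 1 and -2.45 without E5.5 WT 2. The log2 fold changes of *Meis2* and *Pbx4* were 0.32 and 0.23, each with an SE larger than its size. *Elf5* was at 69.0 and 2.88 CPM in E5.5 WT 1 and E5.5 WT 2 and at no more than 2.71 CPM in WT at E6.5; its part in the lower *Meis1* at E6.5 was not tested.

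At E7.5 null epiblasts had low *Meis1* and *Meis2*, and the differences from WT did not pass the call in the main test. *Meis1* was at 1.24, 0.296 and 4.95 CPM in the 3 null libraries, against 0.532 to 63.9 CPM in WT. All 3 lay below the 8 WT libraries other than E7.5 WT 3, and 1 of them, null 2, lay below E7.5 WT 3 too. The log2 fold change was -3.76 (SE 1.18, adjusted p = 0.11 by edgeR). *Meis2* was at 8.54, 14.4 and 25.8 CPM in null, above E7.5 WT 3 (3.83 CPM) and below the other 8 WT libraries. Its log2 fold change was -2.26 (SE 0.77, adjusted p = 0.13 by edgeR).

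Of the 6 genes edgeR called 0 at E7.5, where 1.17% of 19680 genes were called. An unadjusted p under 0.05 was found for 3 of the 6 and for 3874 of the 19680 genes. DESeq2 called 2, *Meis1* (adjusted p = 0.0015) and *Meis2* (adjusted p = 0.011), among 5.62% of genes called. Limma's voom with sample quality weights called 1, *Meis2* (adjusted p = 0.022), among 1198 of 19680 genes called. Without E7.5 WT 3 edgeR called *Meis1* (log2 fold change -3.92, adjusted p = 0.0065) and *Meis2* (log2 fold change -2.42, adjusted p = 4.7e-04), among 5.68% of genes called. The edgeR calls thus turned on E7.5 WT 3. In E7.5 WT 3 the 5 epiblast genes *Pou5f1*, *Utf1*, *Nanog*, *Otx2* and *Fgf5* summed to 1194 CPM, the highest of the 9 WT libraries, whose median was 426 CPM, and 10 mesoderm genes summed to 17.2 CPM, the lowest, beside a median of 376 CPM. Markers of visceral endoderm also moved with genotype at this stage, with 9 genes summing to 37.8 to 244 CPM in null and 371 to 4293 CPM in WT, and their part in the *Meis1* and *Meis2* differences was not tested.

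*Meis3* differed less at E7.5, with 8.72, 11.1 and 7.75 CPM in null inside the WT range of 7.47 to 29.5 CPM, and a log2 fold change of -0.63 (SE 0.36, adjusted p = 0.37 by edgeR). *Pbx2* was at 48.1 to 56.8 CPM in null and at 46.2 to 105 CPM in WT. E7.5 WT 3 lay below the null libraries and the other 8 WT libraries above them, and the log2 fold change was -0.43 (SE 0.17, adjusted p = 0.17 by edgeR). *Pbx3* averaged 67.9 ± 6.47 CPM (SD) over the 3 null libraries and 67.0 ± 16.6 CPM (SD) over the 9 WT libraries, and the 95% interval of its log2 fold change ran from -0.29 to 0.49. For *Pbx4* that interval ran from -1.43 to 1.33, so that a 2-fold change in either direction lay within it. The log2 fold changes of *Pbx3* and *Pbx4* were 0.10 and -0.052, and 0.063 and -0.14 without E7.5 WT 3.

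**Figure D3:**
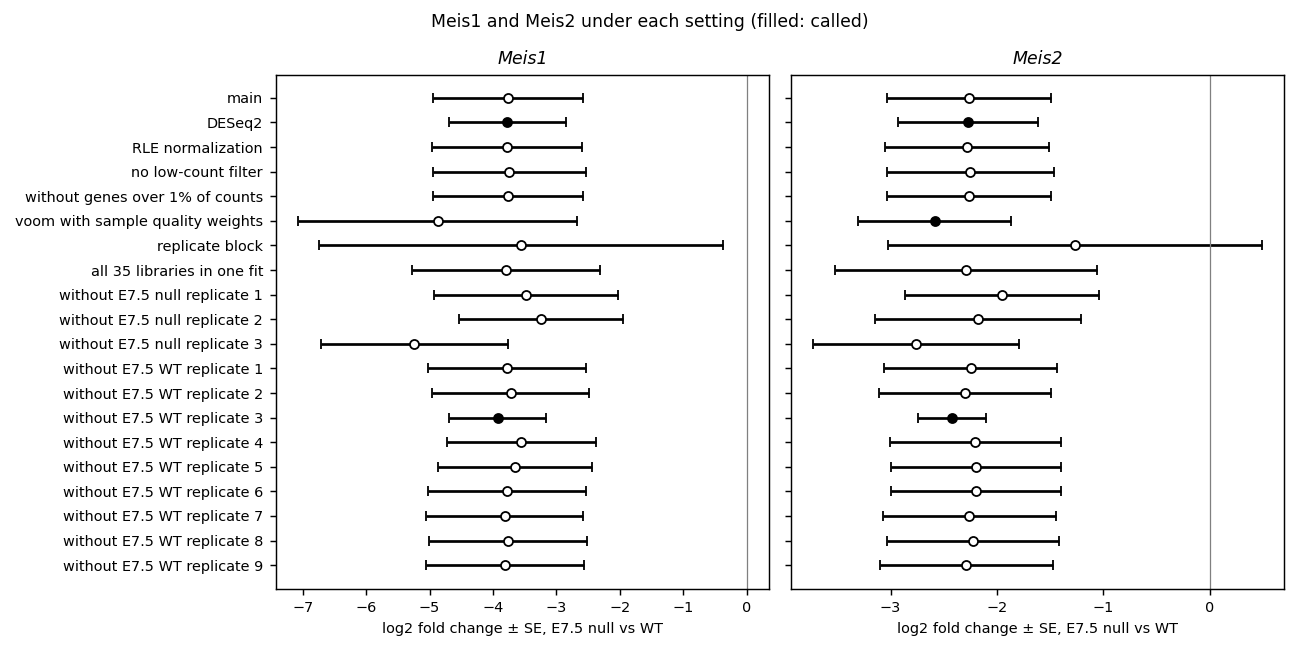
Log2 fold change ± SE (horizontal axis) of *Meis1* (left) and *Meis2* (right) between null and WT at E7.5 under the main fit, each alternative and the fits that left out 1 library; filled points were called. All points lie below 0, the SEs are smallest without E7.5 WT 3 among the edgeR fits, and the horizontal scales of the panels differ.

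At E6.5 the genotypes did not separate for any member. EdgeR called 0 of the 6 genes and 0% of 17095 genes at this stage, 0 members had an unadjusted p under 0.05, and DESeq2 and voom each called 0 members. *Meis1* had 0 to 9.66 CPM in null (median 1.38) and 0 to 3.36 CPM in WT, with a log2 fold change of 1.24 (SE 1.04, adjusted p = 0.85 by edgeR). The highest null library was E6.5 null 1, which had 171 CPM of *Elf5* and 840 CPM summed over the 7 extraembryonic ectoderm genes, where the other null libraries had 171 to 566 CPM. Without it the log2 fold change of *Meis1* was 0.45. *Meis2*, at 0.127 to 7.59 CPM in null and 0 to 6.81 CPM in WT, had a log2 fold change of -0.53 (SE 0.97). *Meis3* overlapped too, at 0 to 7.96 CPM in null and 0.985 to 7.25 CPM in WT, with a log2 fold change of 0.17 (SE 0.63). *Pbx2* averaged 57.4 ± 8.28 CPM (SD) over the 8 null libraries and 48.2 ± 7.17 CPM (SD) over the 9 WT libraries, with a 95% interval of the log2 fold change from -0.0081 to 0.48 and an adjusted p of 0.63 by edgeR. *Pbx3* had 47.4 ± 11.1 (SD, n = 8) and 54.7 ± 16.6 CPM (SD, n = 9), and its interval ran from -0.61 to 0.19. *Pbx4* had 0 to 3.46 CPM in null and 1.21 to 4.70 CPM in WT, with a log2 fold change of -0.46 (SE 0.66).

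At E5.5, with 4 null and 2 WT libraries, edgeR called 0% of 18690 genes and 0 of the 6 members, 0 members had an unadjusted p under 0.05, and DESeq2 and voom each called 0 members. *Pbx3* had 54.9, 24.8, 19.9 and 31.2 CPM in null and 15.9 and 17.3 CPM in WT, so every null value was above both WT values. Its log2 fold change was 0.98 (SE 0.44, adjusted p = 1.0 by edgeR), and 0.60 without E5.5 null 1. The 54.9 CPM were in E5.5 null 1, where the 9 visceral endoderm genes summed to 26.3 CPM, against 5097 to 10980 CPM in the other 5 libraries of the stage; the part of these markers in the *Pbx3* values was not tested. *Meis1* was at 12.97, 10.03, 2.38 and 11.5 CPM in null and at 5.68 and 1.37 CPM in WT, with a log2 fold change of 1.36 (SE 0.87). In the same order *Elf5* was at 273, 85.4, 12.03 and 57.5 CPM in null and at 69.0 and 2.88 CPM in WT; the part of extraembryonic ectoderm transcripts in the *Meis1* values was not tested. *Meis3* was at 0, 17.7, 24.4 and 9.21 CPM in null, and the 0 was in E5.5 null 1, the library at 0.654 CPM of *Pou5f1*. Its log2 fold change was -0.016 (SE 1.66), and 0.40 without that library. *Meis2* was at 0, 0.872, 2.45 and 0.880 CPM in null and at 1.88 and 3.83 CPM in WT, with a log2 fold change of -1.44 (SE 1.57). *Pbx2* was at 33.2 to 49.7 CPM in null and at 30.5 and 35.1 CPM in WT, with a log2 fold change of 0.31 (SE 0.22). *Pbx4* was at 0 in 2 of the 4 null libraries and at 3.20 CPM or less in the others, WT included, with a log2 fold change of -0.81 (SE 2.06) that was -1.65 without E5.5 null 1.

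The course of the null epiblasts was compared within that genotype. Between E6.5 and E7.5 *Meis2* went from 0.127 to 7.59 CPM (median 1.32) to 8.54, 14.4 and 25.8 CPM, and the ranges did not meet. The log2 fold change was 2.75 (SE 0.88, adjusted p = 0.35 by edgeR). Voom with sample quality weights called *Meis2* (adjusted p = 0.011), among 437 of 19460 genes called. *Meis1* overlapped between these stages in null, with a log2 fold change of -0.24 and a 95% interval from -3.35 to 2.86. That interval is wide enough to hold the *Meis2* estimate of 2.75. Without E6.5 null 1 the log2 fold change of *Meis1* was 0.57 (SE 1.38). *Meis3* had a log2 fold change of 0.97 (SE 0.90), *Pbx3* of 0.51 (SE 0.20, adjusted p = 0.51 by edgeR), *Pbx4* of 0.64 (SE 1.04) and *Pbx2* of -0.17 (SE 0.15). EdgeR called 0 of the 6, with 0.103% of 19460 genes called. Beside 1582 of those 19460 genes, 2 members had an unadjusted p under 0.05. DESeq2 called 0 of them.

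Between E5.5 and E6.5 in null edgeR called 0 of the 6, with 1.98% of 18352 genes called, and DESeq2 called 0 of the 6. An unadjusted p under 0.05 was found for 1 member and for 3364 of the 18352 genes. *Pbx2* had a log2 fold change of 0.48 (SE 0.15, adjusted p = 0.11 by edgeR) and *Pbx3* of 0.52 (SE 0.27, adjusted p = 0.35 by edgeR). Without E5.5 null 1, the library at 0.654 CPM of *Pou5f1*, that of *Pbx3* was 0.92 (SE 0.25, adjusted p = 0.048 by edgeR), still under the fold of the call, and that of *Pbx2* was 0.51. *Meis1* was at 2.38 to 12.97 CPM at E5.5 and 0 to 9.66 CPM at E6.5. Its log2 fold change was -1.86 (SE 1.11, adjusted p = 0.43 by edgeR). Voom called it at -4.30 (adjusted p = 0.015), among 1914 of 18352 genes called. *Meis3* had a log2 fold change of -1.48 (SE 1.13), and *Meis2* and *Pbx4* of 1.17 and 0.55, which were 0.78 and 1.41 without E5.5 null 1; that of *Pbx4* was 0.33 without E6.5 null 1.

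**Figure D4:**
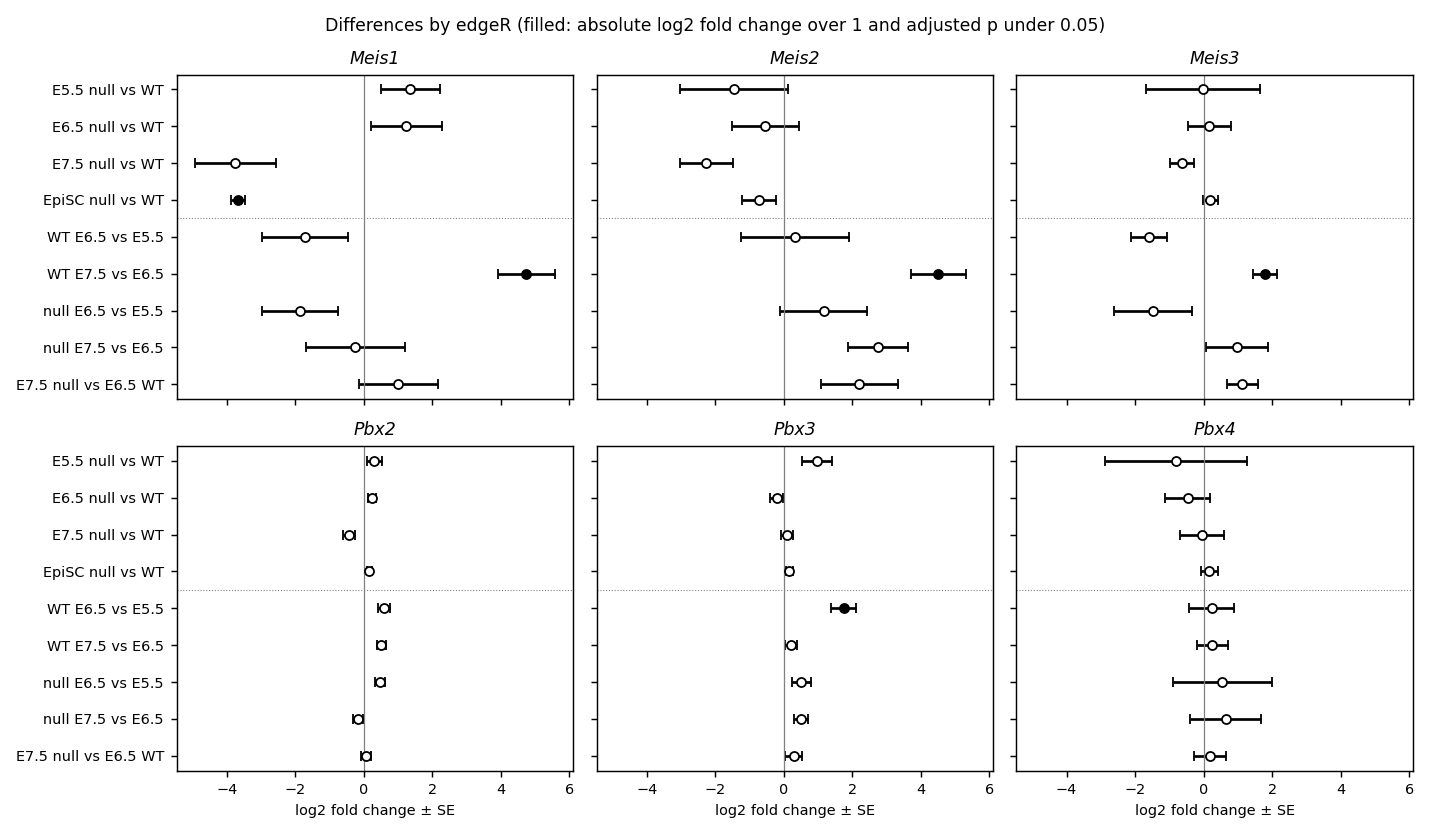
Log2 fold change ± SE by edgeR (horizontal axis) of each gene in 9 comparisons (vertical axis), with null against WT above the dotted line and stages below it; filled points passed the call. Filled points are *Meis1*, *Meis2* and *Meis3* in WT between E6.5 and E7.5, *Pbx3* in WT between E5.5 and E6.5, and *Meis1* in EpiSCs.

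Null epiblasts of E7.5 were also set against WT epiblasts of E6.5, the stage before. *Meis2* at 8.54 to 25.8 CPM in null lay above the 0 to 6.81 CPM of E6.5 WT, with a log2 fold change of 2.21 (SE 1.12, adjusted p = 0.62 by edgeR). *Meis3* at 7.75 to 11.1 CPM lay above the 0.985 to 7.25 CPM of E6.5 WT, with a log2 fold change of 1.13 (SE 0.45, adjusted p = 0.46 by edgeR). Voom called *Meis3* (adjusted p = 0.026), and the alternatives that left out no library, voom among them, called 22 to 315 genes here. *Meis1* overlapped, with a log2 fold change of 1.001 (SE 1.15) that was -0.49 without E7.5 null 3. The log2 fold changes of *Pbx2*, *Pbx3* and *Pbx4* were 0.062, 0.29 and 0.18, with 95% intervals from -0.23 to 0.35, from -0.24 to 0.83 and from -0.83 to 1.18. EdgeR called 0 of the 6, among 0.162% of 19749 genes called, and DESeq2 called 0 of the 6. An unadjusted p under 0.05 was found for 1 member and for 1752 of the 19749 genes.

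The difference between genotypes in the step from E6.5 to E7.5 was tested as an interaction over the 29 libraries of both stages. For *Meis1* the interaction, the step in null minus the step in WT on the log2 scale, was -5.03 (SE 1.78, adjusted p = 0.17 by edgeR), and DESeq2 called it (adjusted p = 0.027). For *Meis2* the interaction was -1.76 (SE 1.36, adjusted p = 0.65 by edgeR), for *Meis3* -0.81 (SE 0.85) and for *Pbx2* -0.68 (SE 0.21, adjusted p = 0.099 by edgeR). For *Pbx3* it was 0.29 and for *Pbx4* 0.39, each within 1 SE of 0, and that of *Pbx4* was 0.60 without E6.5 null 1. EdgeR called 0.443% of 22122 genes and 0 of the 6, and DESeq2 called 3.17% of genes and 1 of the 6. By edgeR an unadjusted p under 0.05 was found for 2 of the 6 and for 3129 of the 22122 genes. Without E7.5 WT 3 edgeR still called 0 of the 6, with *Meis1* at -5.19 (adjusted p = 0.088 by edgeR), *Meis2* at -1.92 and *Pbx2* at -0.74 (adjusted p = 0.026 by edgeR), the last under the fold of the call.

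In EpiSCs *Meis1* was lower in null lines and no other member passed the call. The null lines 2 and 6 had 230 counts each, which were 3.63 and 2.51 CPM, and the WT lines 8 and 13 had 4103 and 4606 counts, which were 41.0 and 36.1 CPM. The WT mean was 12.6 times the null mean, and the log2 fold change was -3.68 (SE 0.21, adjusted p = 0.0071 by edgeR). In this comparison 0.106% of 20736 genes were called. The call held in all 5 alternatives and in the 4 fits that left out 1 line, where the log2 fold change lay between -3.95 and -3.43. Without 1 line its genotype has 1 sample, so the spread comes from the other genotype and the lone line is assumed to vary as those do. The p-value measures the spread between 2 lines of each genotype, each from 1 epiblast.

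*Meis2* was low in EpiSCs, at 2.19 and 0.982 CPM in null and 1.71 and 3.44 CPM in WT, and its log2 fold change was -0.72 (SE 0.50, adjusted p = 0.78 by edgeR). *Meis3* was at 6.45 and 6.89 CPM in null and at 6.62 and 4.84 CPM in WT. *Pbx2* was at 78.1 and 74.1 CPM in null and at 66.0 and 69.1 CPM in WT, with a 95% interval of its log2 fold change from -0.021 to 0.33 and an adjusted p of 0.63 by edgeR. For *Pbx3* the interval ran from -0.061 to 0.40 and for *Pbx4* from -0.43 to 0.75. The markers of visceral endoderm were near 0 in EpiSCs, with 9 genes summing to 0.905 to 1.59 CPM, and the 12 anterior *Hox* genes summed to 1.21 to 1.55 CPM. The EpiSC libraries were made with another kit and sit in another table, so their levels stand beside those of the epiblasts with no test. *Meis1* at 36.1 to 41.0 CPM in WT EpiSCs was within the 21.1 to 63.9 CPM of the 8 higher WT epiblasts of E7.5, and *Meis2* was not, at 1.71 to 3.44 CPM beside 64.4 to 114 CPM.

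HOX proteins are the DNA-binding partners of both families, and 12 *Hox* genes of paralogue groups 1 to 4 were read as a list. In WT at E7.5 they summed to 71.8 to 218 CPM in the 8 libraries in which *Meis1* and *Meis2* were high, and to 0.177 CPM in E7.5 WT 3. In the 3 null libraries of E7.5 they summed to 1.33, 1.83 and 8.47 CPM, and the library with the most, null 3, also had the most *Meis1* and *Meis2* of the 3. At E6.5 the sum was at most 0.721 CPM in WT. In null it was 9.69 CPM in E6.5 null 1 and at most 1.555 CPM in the other libraries. Of 11 tested at E7.5, 2 were lower in null by the call, *Hoxa2* and *Hoxb4*, and 0 were higher, where 1.17% of all genes were called. The median log2 fold change was -6.22 beside -0.020 over all genes. With sums this low in null, the list passed the filter mainly through the WT libraries. The direction was thus largely set in advance, and nothing is read from it. The count of 2 rested on single libraries. It was 0 when any 1 of the 3 null libraries was left out, where 0% (without null 2) to 0.149% (without null 1) of genes were called, and 8 without E7.5 WT 3, where 5.68% were. In WT between E6.5 and E7.5 only *Hoxd1* of the list was tested, and it rose (log2 fold change 3.88, SE 0.83). Without E7.5 WT 3, 7 were tested and 7 rose, among 10.9% of genes called. With at most 0.721 CPM summed at E6.5, these genes passed the filter through the E7.5 libraries, so the rise was set in advance. In the WT EpiSC lines, with *Meis1* at 36.1 and 41.0 CPM, these *Hox* genes summed to 1.25 and 1.55 CPM.

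**Figure D5:**
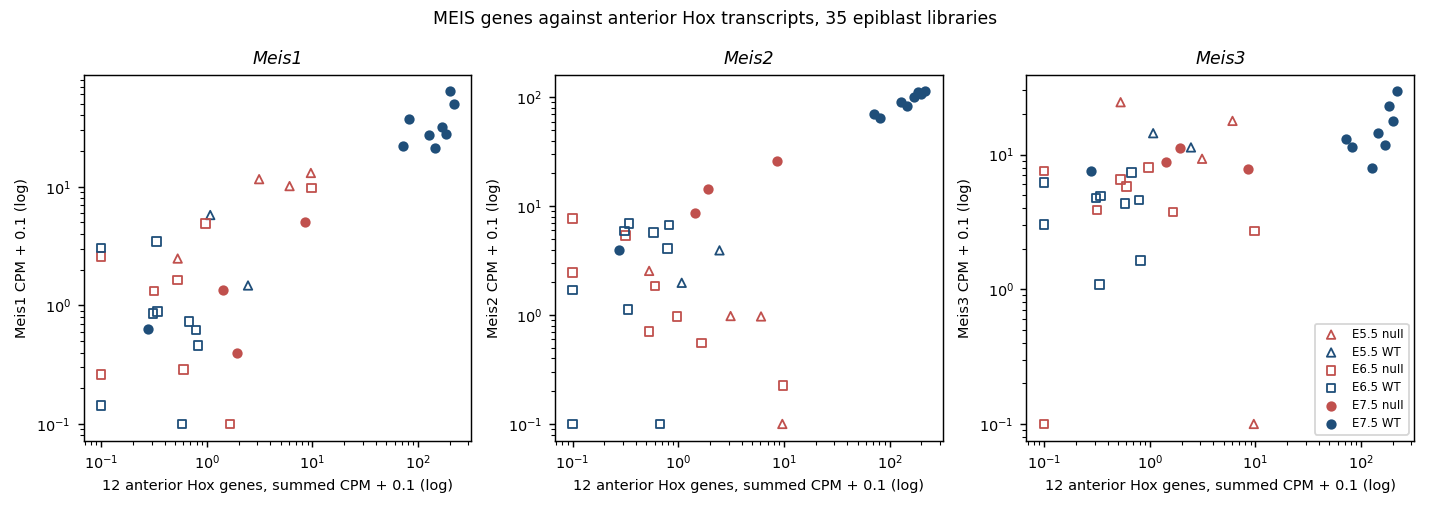
CPM of *Meis1*, *Meis2* and *Meis3* (vertical axes, log scale, 0.1 added) against the summed CPM of 12 anterior *Hox* genes (horizontal axis, log scale, 0.1 added) in the 35 epiblast libraries; WT is blue, null red, and filled circles are E7.5. The 8 WT libraries with 71.8 to 218 CPM of *Hox* transcripts hold the highest *Meis1* and *Meis2* values. E7.5 WT 3, at 0.177 CPM of *Hox* transcripts, and the 3 null libraries of E7.5, at 1.33 to 8.47 CPM, lie to the left of those 8.

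Genes of retinoic acid synthesis, breakdown and response were read as a list of 16. In WT between E6.5 and E7.5, 7 of 15 tested rose and 0 fell, with a median log2 fold change of 1.15 beside 0.0066 over all genes, of which 8.83% were called and 5.74% called higher. *Aldh1a2*, which makes retinoic acid, rose by 8.85 (SE 0.97), *Crabp1*, which binds it in the cytoplasm, by 3.51 (SE 0.58), and *Rarb*, a receptor that is itself induced by it, by 3.47 (SE 0.83), all log2 fold changes. Between null and WT at E7.5, 4 of 16 fell and 0 rose, with a median of -0.55, where 1.17% of all genes were called. The count of 4 became 0 when any 1 of the 3 null libraries was left out. It became 6 without E7.5 WT 3, where 5.68% of all genes were called. The largest were *Aldh1a2* at -7.27 (SE 1.61), *Rarb* at -4.51 (SE 1.05) and *Crabp1* at -2.69 (SE 0.57). A list gene near 0 in WT at E6.5 or in null at E7.5 would pass the filter mainly through the higher group. For such a gene the direction was largely set in advance, and nothing is read from these counts. Between E5.5 and E6.5 *Rdh10*, an enzyme of retinoic acid synthesis, fell in WT (-2.39, SE 0.48) and in null (-2.22, SE 0.43), and *Rarg*, a receptor, rose in WT (1.05, SE 0.20). In EpiSCs, where *Meis1* differed, 0 of 15 were called by edgeR.

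The other TALE genes, a list of 11 with the PREP genes *Pknox1* and *Pknox2*, the TGIF genes and the IRX genes, were read beside the members. In WT between E6.5 and E7.5, 5 of 9 tested rose and 0 fell by the call, beside 5.74% of all genes called higher, and the largest were *Irx3* (log2 fold change 5.57, SE 0.80), *Pknox2* (5.26, SE 0.75) and *Irx5* (4.89, SE 0.85). Any of them near 0 at E6.5 would pass the filter mainly through the E7.5 libraries, so nothing is read from the count of 5. At E7.5 between genotypes edgeR called 0 of 11, with a median log2 fold change of -1.72. Without E7.5 WT 3, 5 were called lower, among 5.68% of all genes called. In the interaction *Tgif1* was called higher at 1.11 (SE 0.22) and 0 were called lower, among 0.443% of all genes. Without E7.5 WT 3, 3 were called lower, among 2.19% of all genes. The call of *Tgif1* was lost when any 1 of the 3 null libraries of E7.5 was left out. In WT between E5.5 and E6.5, *Irx1* (-3.99, SE 0.997) and *Irx2* (-3.65, SE 0.73) fell.

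Markers of the tissues that form at gastrulation were counted beside the members. In WT between E6.5 and E7.5, with 8.83% of all genes called, 7 of 8 neuroectoderm genes rose, led by *Hes3* (log2 fold change 10.9), and 5 of 9 mesoderm genes rose, led by *Foxf1* (7.84), while 4 of 5 epiblast genes fell, led by *Utf1* (-2.69). The 8 neuroectoderm genes summed to 3.16 to 10.3 CPM in WT at E6.5. A marker near 0 at E6.5 passed the filter mainly through the E7.5 libraries, so its rise was largely set in advance. Nothing is read from these counts of rises. In the same comparison 2 of 9 visceral endoderm genes rose (*Rbp4* and *Ttr*), and of 5 extraembryonic ectoderm genes *Cdx2* and *Bmp4* rose and *Eomes*, which also marks the primitive streak, fell. The 7 genes of the extraembryonic ectoderm list summed to a median of 356 CPM at E6.5 and 178 CPM at E7.5. *Elf5* was at no more than 0.498 CPM in WT at E7.5. The rise of *Cdx2* and *Bmp4* was thus not shared by the list as a whole. Of 7 blood genes 2 were tested and 0 called by edgeR, and *Hba-x* and *Hbb-y*, the embryonic globins, were at 0 in every library. At E7.5 between null and WT, 2 of 8 neuroectoderm genes (*Hes3* and *Lhx5*), 1 of 10 mesoderm genes (*Msgn1*) and 2 of 9 visceral endoderm genes (*Trf* and *Afp*) were lower in null by the call, and 0 genes of these lists were higher, among 1.17% of all genes called. Leaving out null 2 left 0 genes called in the whole table, and without null 1 or null 3 only *Hes3* of these was called. Without E7.5 WT 3 the counts lower in null were 6 of 8, 5 of 10 and 7 of 9, and 5 of 5 epiblast genes were called higher, among 5.68% of all genes called.

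The same lists had fewer calls in the other comparisons. In WT between E5.5 and E6.5, with 5.15% of all genes called, *Nanog* and *Pou5f1* of 5 epiblast genes rose, *Bmp4* and *Cdx2* of 7 extraembryonic ectoderm genes fell, and *Gata1* of 2 blood genes and *Sox21* of 7 neuroectoderm genes fell. In null between those stages, with 1.98% called, *T*, which marks the primitive streak, was called higher of 5 mesoderm genes. In the interaction *Hoxa2* and *Msgn1* were called lower. EdgeR called 0 list genes between genotypes at E5.5, at E6.5 and in EpiSCs, in null between E6.5 and E7.5, and for E7.5 null against E6.5 WT. An unadjusted p under 0.05 was found there for 0 of 60, 11 of 53, 12 of 62, 14 of 64 and 13 of 63 list genes tested. Over all genes tested it was found, in the same order, for 467 of 18690, 1414 of 17095, 1885 of 20736, 1582 of 19460 and 1752 of 19749.

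Over the 35 epiblast libraries, the likeness of genes to each member was described by Pearson's r of log2 CPM among 16999 genes; the points share stage, library and depth, and no p is given. The genes most like *Meis1* were *H2afy* (r = 0.91), *Tead1* (r = 0.91) and *Greb1l* (r = 0.89). Those most like *Meis2* were *Cxx1a* (r = 0.88), *Prtg* (r = 0.88) and *Spred1* (r = 0.86), and those most like *Meis3* were *Col7a1* (r = 0.88), *Ror1* (r = 0.88) and *Tmc7* (r = 0.87). For the PBX genes they were *Ptch1*, *Homer3* and *Neo1* for *Pbx2* (r = 0.82, 0.81 and 0.79), *Ralgps2*, *Gpc1* and *Myh10* for *Pbx3* (r = 0.86, 0.85 and 0.84) and *Plk4*, *Pigx* and *Garem* for *Pbx4* (r = 0.79, 0.78 and 0.77). No member was among the 3 most like another. Between members r was highest for *Meis2* with *Pbx2* (0.51), was 0.38 for *Meis1* with *Meis2*, and was lowest for *Meis3* with *Pbx4* (-0.28).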

How the data were processed

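The authors trimmed reads with Trim Galore, aligned them with HISAT2 to GRCm38 and counted them with StringTie, and deposited counts per gene for 35 epiblast and 4 EpiSC libraries, in a table each. The annotation release and the strand setting are not given in the sources used here. Epiblast libraries were made with a SMARTer stranded total RNA kit and EpiSC libraries with a NEBNext kit after ribosomal RNA removal, so the tables were tested separately. Between 7.18% and 11.5% of epiblast counts, and between 12.1% and 14.0% of EpiSC counts, fell on *Gm26917*. Every column was mapped to a sample, and 0 were left out. Total counts lay between 22941210 and 127583699, and intervals and floors of 3 counts cover counting error only.

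The deposited counts were scaled by TMM and filtered by filterByExpr on the groups, with 10 as the minimum count and 15 as the minimum total. They were tested two-sided with the robust quasi-likelihood test of edgeR 4.0.16 (R 4.3.3), and p-values were adjusted by Benjamini-Hochberg across the table. Calls needed an adjusted p under 0.05 and a log2 fold change beyond 1 in either direction, and the SE is the size of the log2 fold change divided by the square root of F. The 95% intervals use that SE and the t quantile at the degrees of freedom of the test. Each comparison used the libraries of its own groups, and the interaction those of E6.5 and E7.5. Scripts were tested on simulated data. Alternatives were DESeq2 1.42.0, limma 3.58.1 (voom with sample quality weights), RLE normalization, no filter, exclusion of genes over 1% of counts, all 35 libraries in 1 fit, a replicate block and leaving out each library. A depth term was tried at E6.5, and splits of the E6.5 libraries at 40000000 counts were added after the data were seen. Nothing says that libraries with the same number come from 1 litter or day. Merged exon lengths and positions came from GENCODE vM21 and promoters from RefSeq (GRCm38.p6). Identity between transcripts was searched with blastn 2.17.0, and figures were drawn with matplotlib 3.10.9.

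The 6 genes were named in every comparison, and of each list the counts called and up to 3 called genes with the largest changes, with lists without a call given together. For each member the 3 genes with the highest r over the 35 epiblast libraries were named, predicted genes aside, from log2 CPM with a prior count of 2. The members and lists were chosen with earlier results of these data known. Other genes of the families are not reported here.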

Additional observations from a re-analysis of the deposited data

Results flagged for a closer look

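*Meis2* in E7.5 WT 3 was at 3.83 CPM, and the nearest of the other 8 WT libraries of E7.5 was at 64.4 CPM. The gap was 0.550 of the range of the 9 libraries, above Dixon's limit for 9 values. The 6 genes in the groups of 4 to 9 libraries gave 24 sets of values, of which 1 was flagged, and chance flags about 1 in 20. In the same library *Meis1* was the lowest of the WT libraries at 0.532 CPM, *Meis3* the lowest at 7.47 CPM and *Pbx2* the lowest at 46.2 CPM.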

How the results depend on the processing

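The calls of *Meis1*, *Meis2* and *Meis3* in WT between E6.5 and E7.5 held in all 8 alternatives and all 18 fits without 1 library, and the call of *Meis1* in EpiSCs in 5 and 4. The number of members called changed as follows, and the cause was not tested. Between null and WT at E7.5 it was 0 in the main fit, 2 by DESeq2, 1 by voom and 0 to 2 with 1 library left out, the 2 coming without E7.5 WT 3. In WT between E5.5 and E6.5 it was 1 in the main fit, 2 by DESeq2, 2 by voom, 0 with a replicate block (*Pbx3*, adjusted p = 0.067), 3 with only the E6.5 libraries under 40000000 counts, and 0 to 2 with 1 library left out. With voom it was 1 in place of 0 in null between E5.5 and E6.5, in null between E6.5 and E7.5, and for E7.5 null against E6.5 WT. For the interaction it was 1 in place of 0 by DESeq2 and 1 with only the E6.5 libraries under 40000000 counts (*Meis1*, adjusted p = 0.047). Over all genes, the calls between null and WT at E7.5 ranged from 0 to 1198 beside 231 in the main fit. They were 1027 of 18259 genes by DESeq2, 1198 of 19680 by voom and 1105 of 19462 without E7.5 WT 3. In WT between E5.5 and E6.5 they were 1070 of 20763, with 2050 of 19213 by DESeq2 and 2131 of 20763 by voom. The replicate block gave 101 of 20763 there, and the E6.5 libraries under 40000000 counts gave 2698 of 19967. The changed counts are not read as results about the members.

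Some log2 fold changes of members that were not called changed sign. With the replicate block, *Meis2* was at 0.41 between genotypes at E6.5 and at -3.73 in WT between E5.5 and E6.5, *Meis3* at 0.11 between genotypes at E7.5, *Pbx4* at -0.037 in WT between E6.5 and E7.5, and *Pbx2* and *Pbx4* at -0.16 and -0.43 for E7.5 null against E6.5 WT. With voom, *Pbx4* was at 0.39 between genotypes at E7.5, *Meis2* at -0.13 in WT between E5.5 and E6.5 and *Meis1* at 1.06 in null between E6.5 and E7.5. With DESeq2, *Meis3* was at 0.0068 between genotypes at E5.5. With only E6.5 libraries over 40000000 counts, *Meis2*, *Meis3* and *Pbx3* were at 1.90, -0.039 and 0.30 between genotypes at E6.5. With only those under it, *Pbx4* was at -0.27 in WT between E5.5 and E6.5 and *Meis1* at 0.51 in null between E6.5 and E7.5.

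With 1 library left out, the changed signs spanned these ranges. They were, between genotypes at E5.5, *Meis3* -0.53 to 0.40 and *Pbx4* -1.65 to 0.091. At E7.5 it was *Pbx4* -0.24 to 0.31. In WT between E5.5 and E6.5 they were *Meis2* -0.13 to 0.85 and *Pbx4* -0.35 to 1.08, and between E6.5 and E7.5 *Pbx4* -0.11 to 0.42. In null between E6.5 and E7.5 it was *Meis1* -1.73 to 0.57. For E7.5 null against E6.5 WT they were *Meis1* -0.49 to 1.52, *Pbx2* -0.022 to 0.11 and *Pbx4* -0.0070 to 0.35, and in EpiSCs *Meis3* -0.032 to 0.47.

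The deviations of same-numbered libraries of the genotypes had correlations of 0.017 and 0.17 in 2 pairs at E5.5, 0.022 to 0.15 in 8 pairs at E6.5 and -0.17 to 0.011 in 3 pairs at E7.5. A null library correlated best with the WT library of its own number in 2 of 2, 5 of 8 and 0 of 3 pairs. The numbers were not taken as pairs. EpiSC lines share no number, so no block could be fitted there.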
